A study of Mus musculus with 33 samples.

Results

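A set of 10 genes known from the primitive and the definitive endoderm of the mouse embryo, Gata4, Gata6, Sox17, Sox7, Foxa2, Cer1, Hhex, Dab2, Cubn and Amn, were followed through the reprogramming of mouse embryonic fibroblasts (MEFs) to induced pluripotent stem (iPS) cells. The genes were taken by name, through their Ensembl identifiers, with earlier results of these data known. All 10 were found among the 37583 gene identifiers counted in every library, and all 10 were among the 17326 genes with enough reads to be tested. Sox17, Foxa2 and Cer1 reached that minimum through day 12 and iPS libraries, since MEFs held 0, 1 and 0 reads of them.

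The primitive endoderm forms beside the epiblast in the blastocyst and gives the parietal and visceral endoderm of the yolk sac, while the definitive endoderm forms later, at gastrulation, and gives the gut. FGF signalling and GATA factors specify the former, Nodal signalling the latter, and SOX17, FOXA2 and HHEX act in both. Visceral endoderm takes up maternal nutrients through the receptor complex of cubilin and amnionless, and DAB2 links such receptors to clathrin coats.

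The cells were of the mixed strain 129SV/Jae/C57BL6J. One group was MEFs kept in MEF medium. The other groups were cells in embryonic stem cell medium with doxycycline (dox) and AA, as the labels abbreviate it, taken at days 3, 6, 9 and 12 and at the iPS stage and sorted by antibody staining, after trypsin, into cells without and with the surface antigen SSEA1, an early sign of reprogramming (SSEA1- and SSEA1+). Each of the 11 groups had 3 poly-A RNA libraries, and each comparison with MEFs used the same 3 MEF libraries. Whether replicates were grown apart or came from different embryos is not in the labels, and the p-values therefore speak of the scatter of these libraries alone, part or all of which may be technical.

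Reads in genes numbered 8.93 M to 41.69 M per library (median 23.15 M), so that 3 reads, the number a count of 0 still allows, stood for 0.072 to 0.336 CPM. CPM is the count of a gene per 1 M counts of its library, with the library size corrected by TMM. Such limits cover counting error only. A sum over 9 fibroblast markers was highest in MEFs (79800 to 87300 CPM) and was 50.7 to 250 CPM in iPS SSEA1+ cells, whereas 8 pluripotency markers summed to 47.5 to 61.8 CPM and 4560 to 6580 CPM. The iPS SSEA1- libraries did not resemble each other in this respect. Their pluripotency sums were 130, 389 and 2530 CPM in replicates 1, 2 and 3, and their fibroblast sums were 8300, 14300 and 15200 CPM. All groups are bulk samples, in which fewer cells of a type and less RNA per cell cannot be told apart.

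A gene was called changed when edgeR's quasi-likelihood test gave an adjusted p under 0.05 and the change was at least 2-fold. Against MEFs, the SSEA1- fraction had 2 of the 10 genes called at days 3, 6 and 9, when 30.2%, 28.2% and 26.6% of all tested genes were called. Hhex was higher and Gata6 lower at each of these days. At day 12 the number was 6 (28.1% of all genes, 17.0% higher and 11.1% lower), with Gata4, Sox17, Sox7, Cer1 and Hhex higher and Gata6 lower. In iPS SSEA1- cells 6 genes were called (26.8% of all genes), 6 higher and none lower. Of all genes 19.1% and 7.70% were called in these directions. The 6 were Gata4, Sox17, Sox7, Foxa2, Cer1 and Hhex. Sox17, Foxa2 and Cer1, with 0, 1 and 0 MEF reads, could not be called lower in any comparison with MEFs.

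In the SSEA1+ fraction, 3, 3 and 4 of the 10 genes were called against MEFs at days 3, 6 and 9 (32.3%, 33.5% and 38.6% of all genes). Hhex was the one that rose, Gata6 and Dab2 fell at each day, and Cubn fell at day 9. The count was 8 at day 12 (46.6% of all genes, 26.5% higher and 20.2% lower) and 8 at the iPS stage (50.5% of all genes). Of the day 12 calls 6 were higher (Gata4, Sox17, Sox7, Foxa2, Cer1 and Hhex) and 2 lower (Gata6 and Dab2), and of the iPS calls 5 were higher (Gata4, Sox17, Sox7, Hhex and Amn) and 3 lower (Gata6, Dab2 and Cubn). The day 12 calls of Gata4, Sox7, Foxa2 and Cer1 were lost without replicate 1 of that group. Cubn was then called lower than in MEFs (edgeR adjusted p = 0.015), and 5 genes were called in all. The day 12 call of Gata4 was lost as well without MEF replicate 1 or 3 (edgeR adjusted p = 0.13 and 0.076), and that of Sox7 without MEF replicate 2 or 3 (edgeR adjusted p = 0.064 and 0.068).

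Gata4 encodes a zinc finger factor that drives primitive endoderm and also acts in the heart and gut. It was low until day 9: MEFs had 0.232, 1.67 and 0.696 CPM, and no library of days 3 to 9 exceeded 0.969 CPM. Day 12 SSEA1- cells had 7.37, 4.74 and 3.26 CPM, and iPS SSEA1- cells had 23.4, 36.4 and 11.1 CPM. These 6 values lie above every MEF value, and the iPS SSEA1- values lie above those of every other group. In SSEA1+ cells, day 12 had 8.41, 1.23 and 1.31 CPM and the iPS stage 5.21, 3.23 and 5.35 CPM.

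Relative to MEFs, Gata4 rose in day 12 SSEA1- cells by 2.59 ± 0.79 and in iPS SSEA1- cells by 4.79 ± 0.85 on the log2 scale (± standard error, edgeR adjusted p = 0.011 and 0.00011). It rose in iPS SSEA1+ cells by 2.43 ± 0.79 (edgeR adjusted p = 0.0092). The first and the last of these calls were lost without MEF replicate 1, the lowest of the MEF libraries for this gene (edgeR adjusted p = 0.073 and 0.062). Between the iPS fractions, SSEA1+ was lower than SSEA1- by 2.36 ± 0.73 on the log2 scale (edgeR adjusted p = 0.009), and the libraries of both fractions did not overlap. That call was lost without iPS SSEA1- replicate 2 (-1.91 ± 0.77, edgeR adjusted p = 0.05). In the heart, another setting of Gata4 and Gata6, other markers are known, and 8 cardiac muscle genes summed to 14.9 to 85.8 CPM in iPS SSEA1-, 26.2 to 37.1 CPM in iPS SSEA1+ and 4.42 to 7.72 CPM in MEFs. In iPS SSEA1- cells 6 of these 8 were higher than in MEFs (19.1% of all genes). None of the 8 was at 0 in all 3 libraries, and their part in the Gata4 result was not tested.

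Gata6, a related factor that is among the earliest marks of primitive endoderm, was instead present at the start. MEFs had 14.0, 18.8 and 8.63 CPM, and day 3 SSEA1- cells had 2.63, 3.76 and 2.07 CPM. The lowest group was day 6 SSEA1+, with 0.399, 1.34 and 1.06 CPM. Against MEFs the log2 difference was -2.29 ± 0.61 at day 3 in SSEA1- cells and -3.89 ± 0.66 at day 6 in SSEA1+ cells (edgeR adjusted p = 0.0032 and 3e-05). At day 12 in SSEA1- cells it was -1.85 ± 0.60 (edgeR adjusted p = 0.015), a call lost without MEF replicate 2 or day 12 SSEA1- replicate 1 or 3 (edgeR adjusted p = 0.05 to 0.069). The gene stood higher again in iPS SSEA1- cells, at 8.82, 20.8 and 7.34 CPM, a range that overlaps that of MEFs. In iPS SSEA1+ cells it had 4.09, 4.12 and 3.15 CPM, below all iPS SSEA1- libraries, and the difference between the fractions was -1.70 ± 0.59 on the log2 scale (edgeR adjusted p = 0.019). That call was lost without replicate 2 of iPS SSEA1-, its highest library (-1.10 ± 0.61, edgeR adjusted p = 0.15), and missed the threshold without replicate 3 of iPS SSEA1+ (edgeR adjusted p = 0.054).

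**Figure D1:**
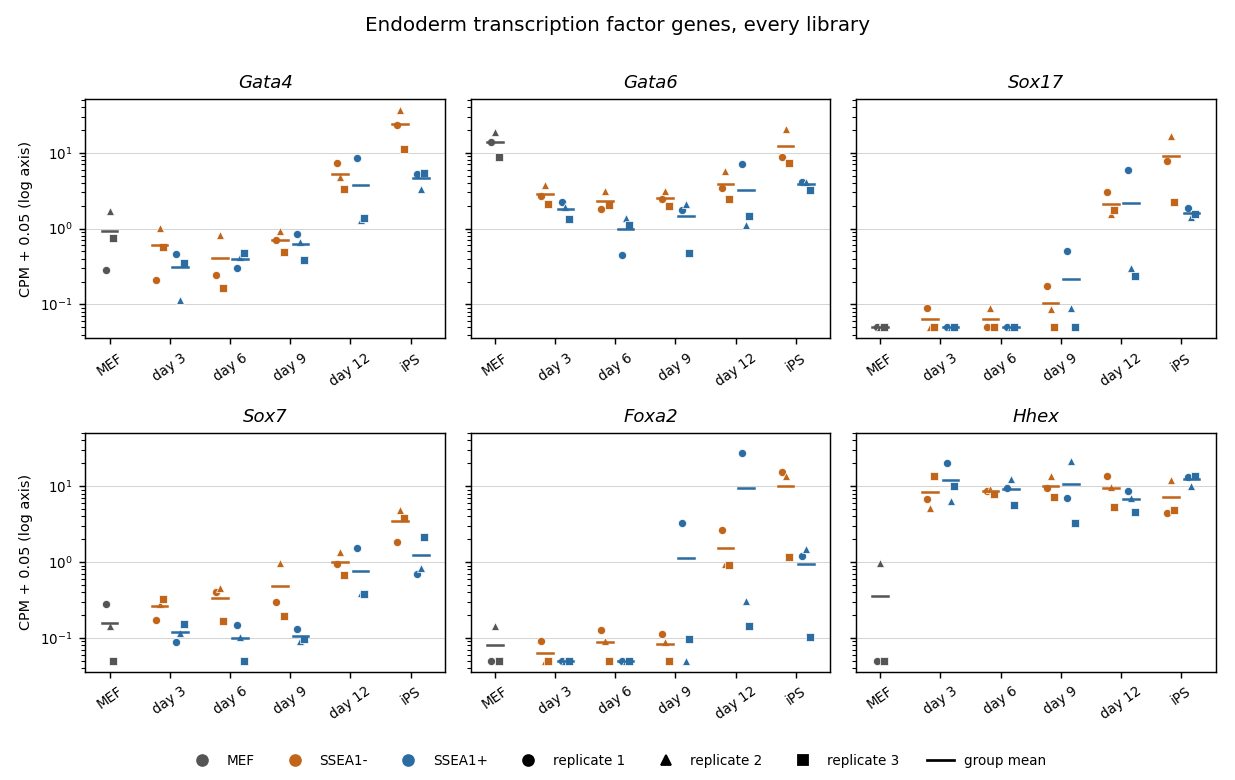
Levels of the 6 transcription factor genes in each library: the vertical axis is CPM plus 0.05 on a log scale, the horizontal axis the stage, and colour separates MEFs, SSEA1- and SSEA1+ cells. Points are libraries, their shape is the replicate number and bars are group means. Gata6 is high in MEFs and in iPS SSEA1- cells, Hhex is high from day 3 on, and the day 12 SSEA1+ circle (replicate 1) of Foxa2, at 27.5 CPM, stands far above the other libraries of its group.

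Sox17, a factor needed for definitive endoderm and also made in primitive endoderm and endothelium, had no read in any MEF library. It stayed at or below 0.456 CPM through day 9. Day 12 SSEA1- cells had 3.03, 1.52 and 1.69 CPM, and iPS SSEA1- cells had 7.68, 16.8 and 2.20 CPM. Day 12 SSEA1+ cells had 5.90, 0.255 and 0.187 CPM, so 1 library carried most of the signal, while iPS SSEA1+ cells were even, at 1.81, 1.39 and 1.52 CPM.

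Set against 3 reads over the MEF group, Sox17 was at least 24.6-fold higher in day 12 SSEA1- cells and at least 93.7-fold higher in iPS SSEA1- cells (edgeR adjusted p = 0.0043 and 0.00058). In SSEA1+ cells it was at least 27.8-fold higher at day 12 and at least 18.5-fold higher at the iPS stage (edgeR adjusted p = 0.0022 and 0.0035). The day 12 bound rested on replicate 1, and without it the gene was at least 2.61-fold higher (10 reads, edgeR adjusted p = 0.044). The 2 fractions overlapped at day 12, with a log2 difference of 0.03 ± 1.02 (edgeR adjusted p = 0.98). Without replicate 1 of day 12 SSEA1+ the difference was -3.20 ± 1.08 (edgeR adjusted p = 0.023).

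Sox7, a close relative of Sox17 in primitive endoderm and vessels, rose from 0.232, 0.093 and 0 CPM in MEFs to 0.902, 1.29 and 0.629 CPM in day 12 SSEA1- cells and 1.78, 4.82 and 3.72 CPM in iPS SSEA1- cells. It reached 0.637, 0.780 and 2.10 CPM in iPS SSEA1+ cells. The log2 increases over MEFs, which held 5 reads, were 2.80 ± 0.85, 4.66 ± 0.86 and 3.11 ± 0.86 (edgeR adjusted p = 0.011, 0.00019 and 0.0027). At day 9 Sox7 was lower in SSEA1+ cells (0.0829, 0.0410 and 0.0479 CPM, 4 reads) than in SSEA1- cells (0.250, 0.911 and 0.147 CPM, 34 reads). The difference was -2.85 ± 0.88 on the log2 scale (edgeR adjusted p = 0.012). This call was lost without replicate 2 of the SSEA1- cells (edgeR adjusted p = 0.15), and a fit of both groups alone did not test the gene.

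Endothelial cells also make Sox17 and Sox7. A list of 9 endothelial markers summed to 143 to 324 CPM in the libraries of days 3 to 9, where Sox17 was at or below 0.456 CPM, to 126 to 180 CPM in day 12 SSEA1- cells and to 46.1 to 72.8 CPM in iPS SSEA1- cells, where Sox17 was highest. In MEFs the sum was 17.2 to 33.8 CPM, with Tie1 at 0 in all 3 libraries. Of the 9 markers 7 were higher and 1 lower than in MEFs in day 12 SSEA1- cells (median log2 difference 5.03, or 3.71 with genes lacking MEF reads at their lower bound), and 5 were higher and 1 lower in iPS SSEA1- cells. Of all genes 17.0% were higher and 11.1% lower in the day 12 comparison, and 19.1% and 7.70% in the iPS comparison. The part of endothelial cells in the Sox17 and Sox7 levels was not tested.

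Foxa2, a forkhead factor of visceral and definitive endoderm, node and notochord, and Cer1, which encodes a secreted inhibitor of Nodal, BMP and Wnt made by the anterior visceral endoderm, had widely spread libraries within several groups. Their promoters are shown because the levels of both genes moved together over the libraries. Each line is the 250 bases before the RefSeq start on GRCm38.p6, for Foxa2 before the most upstream of 3 starts, read 5′ to 3′ on the gene's minus strand, at chr4:82885152-82885401 for Cer1 and chr2:148046970-148047219 for Foxa2. Capitals mark forkhead words.
Cer1: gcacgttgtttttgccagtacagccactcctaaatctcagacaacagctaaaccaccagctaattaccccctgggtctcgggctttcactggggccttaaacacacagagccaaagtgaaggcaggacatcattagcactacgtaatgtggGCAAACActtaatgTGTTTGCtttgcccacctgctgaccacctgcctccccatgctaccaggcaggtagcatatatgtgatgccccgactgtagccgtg
Foxa2: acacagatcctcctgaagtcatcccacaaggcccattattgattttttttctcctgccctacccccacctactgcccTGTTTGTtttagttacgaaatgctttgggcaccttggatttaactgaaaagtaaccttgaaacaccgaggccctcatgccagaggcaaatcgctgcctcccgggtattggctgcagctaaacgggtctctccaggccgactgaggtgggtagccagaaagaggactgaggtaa

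The forkhead words searched on both strands were TGTTTAC and TGTTTGC, together with the further forms TGTTTAT and, as the last, TGTTTGT. Cer1 held 2 of them, 1 on each strand, and Foxa2 held 1, where 15.7% of 32851 promoter windows of this length held any. The 2 words in Cer1 do not overlap. The GATA words, which were AGATAA and TGATAA, together with the further forms AGATAG and, as the last, TGATAG, were in neither window and in 26.5% of all windows. Of the windows before the other two Foxa2 starts, which are not printed, 1 held AGATAA and no forkhead word, and the other held neither kind. A word is a match of letters and not a site of binding. RefSeq entries were at hand for 6 of the 10 genes (Foxa2, Cer1, Hhex, Dab2, Cubn and Amn). For Dab2, 1 window held a forkhead word (ATAAACA, on the other strand) and 1 held TGATAA. The windows of Hhex, Cubn and Amn held neither kind.

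Foxa2 had 1 read over the 3 MEF libraries and at most 0.0773 CPM in any library of days 3 and 6. At day 9, SSEA1+ replicate 1 had 3.19 CPM, and replicates 2 and 3 had 0 and 0.0479 CPM. At day 12 the same replicate number had 27.5 CPM in SSEA1+ cells, against 0.255 and 0.0933 CPM. The SSEA1- libraries of day 12 had 2.61, 0.903 and 0.864 CPM. The iPS SSEA1- libraries had 15.5, 13.6 and 1.12 CPM and the iPS SSEA1+ libraries 1.17, 1.45 and 0.0525 CPM.

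By reads, the ratio of Foxa2 to MEFs was 52.6 in day 12 SSEA1- cells (95% counting interval 9.28 to 2.09e+03) and 346 in iPS SSEA1- cells (61.9 to 1.37e+04). The test called the second of these and not the first (edgeR adjusted p = 0.0094 and 0.077), while DESeq2 called the first too (adjusted p = 0.04). The day 12 SSEA1+ ratio of 370 (66.3 to 1.46e+04, edgeR adjusted p = 0.0055) was that of replicate 1, since without it the adjusted p was 0.40. Reads within 1 library are not replicates, and these intervals cover counting error only.

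Cer1 had no MEF read. Day 9 SSEA1+ cells had 5.22, 0.0410 and 0.0479 CPM, and day 12 SSEA1+ cells had 67.9, 0.723 and 0.0933 CPM. The SSEA1- libraries of day 12 had 18.9, 6.35 and 0.786 CPM, and those of the iPS stage had 6.72, 61.7 and 0.186 CPM. In iPS SSEA1+ libraries Cer1 had 0.637, 2.73 and 0 CPM. Replicate 1 was thus highest at days 9 and 12 in both fractions, replicate 2 was highest at the iPS stage in both, and replicate 3 was lowest in both fractions at day 12 and at the iPS stage.

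Against 3 reads over the MEF group, Cer1 was at least 108-fold higher in day 12 SSEA1- cells and at least 212-fold higher in iPS SSEA1- cells (edgeR adjusted p = 0.021 and 0.0094). The first call was lost without any 1 of the 3 MEF libraries or without day 12 SSEA1- replicate 1 (edgeR adjusted p = 0.052 to 0.074), and the second without iPS SSEA1- replicate 2, when the bound was 42.1-fold (edgeR adjusted p = 0.054). At day 12 SSEA1+ the bound was 305-fold (edgeR adjusted p = 0.005), and without replicate 1 it was 4.95-fold and the call was lost (edgeR adjusted p = 0.19). In iPS SSEA1+ cells the gene was at least 12.8-fold higher by reads but was not called by edgeR (adjusted p = 0.11), whereas DESeq2 called it (adjusted p = 0.023).

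Replicate 1 of day 12 SSEA1+ was also the highest of its group for Gata4, Gata6, Sox17, Sox7, Hhex, Dab2 and Cubn. Its pluripotency sum was 3740 CPM, against 2980 and 2010 CPM in the other two, and its fibroblast sum was 185 CPM, against 226 and 335 CPM. Leaving it out turned the comparison of the day 12 fractions from 2 called genes to 6, with Gata4 (-2.01 ± 0.74), Gata6 (-1.63 ± 0.58), Sox17 (-3.20 ± 1.08), Cubn (-3.29 ± 1.09) and Dab2 lower in SSEA1+ cells and Amn higher. The library was left out after its values had been seen.

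Hhex encodes a homeobox factor of the anterior visceral and definitive endoderm and of blood progenitors, and it followed another course. MEFs had 0, 0.930 and 0 CPM. By day 3 the SSEA1- cells had 6.69, 5.04 and 13.5 CPM and the SSEA1+ cells 20.1, 6.30 and 10.1 CPM. Its lowest value in any of the 30 reprogramming libraries was 3.25 CPM, in day 9 SSEA1+ replicate 3, and its highest was 21.5 CPM, in replicate 2 of the same group.

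Hhex was higher than in MEFs in all 10 reprogramming groups, by log2 differences from 4.46 ± 0.87 in day 12 SSEA1+ to 5.32 ± 0.88 in iPS SSEA1+ (edgeR adjusted p = 9.8e-05 and 1e-05). MEFs held 10 reads of it, all in replicate 2, so the size of these differences depended on that library. Without it, and set against 3 reads over the other MEF libraries, Hhex was at least 52.4-fold (iPS SSEA1-) to at least 110-fold (day 3 SSEA1+) higher, and it remained called in all 10 groups. No comparison between fractions called it, and the largest such difference was 0.79 ± 0.65 at the iPS stage (edgeR adjusted p = 0.31). Neighbouring groups in the order of its levels overlapped throughout the reprogramming groups. Groups further apart in that order did not all overlap. Day 12 SSEA1+ cells had 4.57 to 8.66 CPM and iPS SSEA1+ cells 9.92 to 13.4 CPM, a difference that was not called (edgeR adjusted p = 0.44).

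Dab2 encodes a clathrin adaptor found in primitive endoderm and also in fibroblasts and macrophages. MEFs had 146, 161 and 203 CPM. SSEA1- cells had 113, 168 and 149 CPM at day 3 and 172, 331 and 60.1 CPM at the iPS stage, and no stage of theirs was called against MEFs. The SSEA1+ cells had 36.2, 64.4 and 63.9 CPM at day 3, 33.2, 77.6 and 52.8 CPM at day 6, and 23.6, 48.8 and 18.6 CPM at day 9. They had 18.8, 9.06 and 13.6 CPM at day 12 and 8.87, 3.68 and 1.68 CPM at the iPS stage. Every SSEA1+ library lay below every SSEA1- library of its stage.

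The Dab2 difference between fractions (SSEA1+ minus SSEA1-) was -1.39 ± 0.49 on the log2 scale at day 3 and was not called (edgeR adjusted p = 0.063). It was -2.00 ± 0.50, -2.78 ± 0.52, -3.75 ± 0.54 and -5.30 ± 0.59 at days 6, 9 and 12 and at the iPS stage (edgeR adjusted p = 0.0045, 0.00019, 5.8e-06 and 8e-08). Against MEFs, iPS SSEA1+ cells were lower by -5.16 ± 0.58 (edgeR adjusted p = 3.5e-08). With the replicate number as a block, the day 3 difference between fractions was called too (-1.38 ± 0.46, edgeR adjusted p = 0.038). From day 12 to the iPS stage Dab2 fell in SSEA1+ cells by 1.54 ± 0.52 on the log2 scale (edgeR adjusted p = 0.047). This call was lost without day 12 SSEA1+ replicate 1 or 3 or iPS SSEA1+ replicate 2 or 3 (edgeR adjusted p = 0.11 to 0.21). It was lost too with DESeq2's size factors, with no filter on low counts and in a fit of both groups alone (edgeR adjusted p = 0.054, 0.075 and 0.11).

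Markers of fibroblasts and macrophages, which also make Dab2, were read beside it. The 9 fibroblast markers summed to 79800 to 87300 CPM in MEFs and to 3320 to 7010 CPM in day 3 SSEA1- cells. Dab2 was not called between these groups. All 9 fibroblast markers were lower in SSEA1+ than in SSEA1- cells at the iPS stage (21.3% of all genes). A list of 9 macrophage markers summed to 753 CPM in iPS SSEA1- replicate 2, which also had the highest Dab2 value of any library, and to 26.9 and 20.5 CPM in replicates 1 and 3. In iPS SSEA1+ cells the macrophage sum was 69.6, 104 and 36.6 CPM. Replicate 2 had the highest macrophage sum in MEFs and in every SSEA1- group (50.6 to 753 CPM). Of the 9 macrophage markers 6 were lower and 1 higher in iPS SSEA1+ than in iPS SSEA1- cells, and without replicate 2 none was lower and 1 was higher. Dab2 remained called there without that library, and the part of these cells in its level was not tested.

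**Figure D2:**
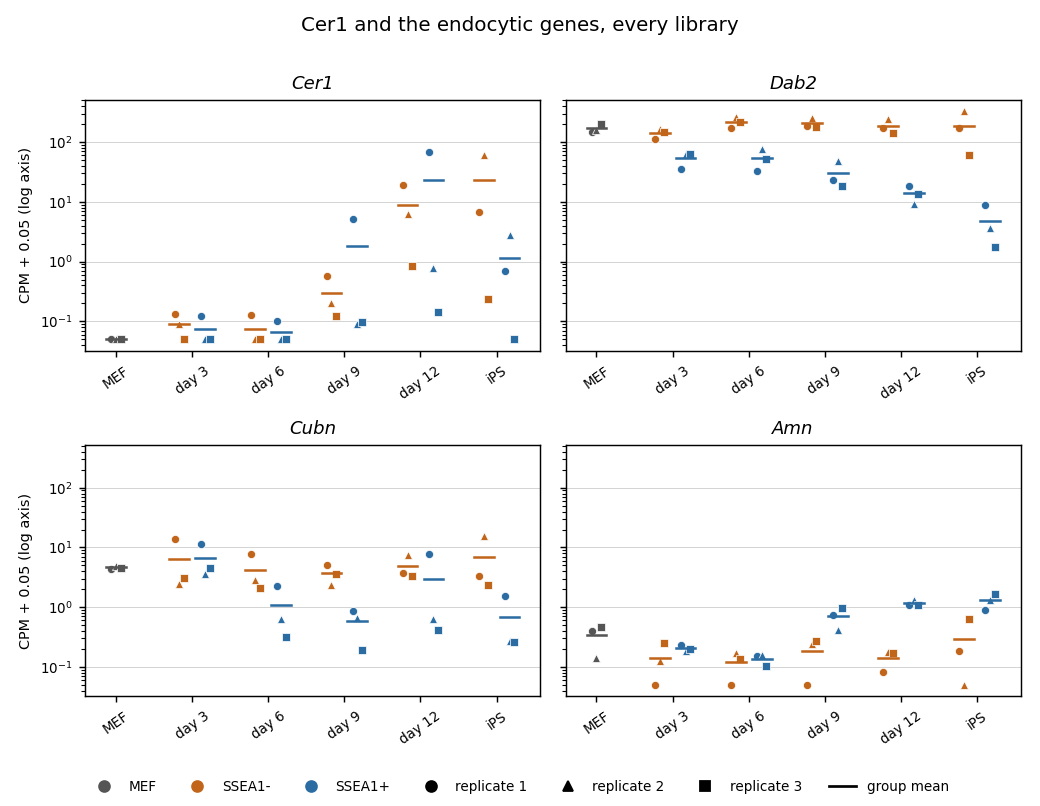
Levels of Cer1 and of the 3 endocytic genes in each library, as CPM plus 0.05 on a log axis, by stage, with colour for MEFs, SSEA1- and SSEA1+ cells, shape for the replicate number and bars for group means. At the iPS stage Dab2 is at 1.68 to 8.87 CPM in SSEA1+ and at 60.1 to 331 CPM in SSEA1- cells, and Amn is at 0.369 CPM or more in each SSEA1+ library from day 9 on.

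Cubn encodes cubilin, the large receptor of visceral endoderm and of kidney and gut epithelium. MEFs had 4.36, 4.93 and 4.45 CPM. SSEA1+ cells had 11.6, 3.58 and 4.45 CPM at day 3, 2.24, 0.587 and 0.264 CPM at day 6 and 0.829, 0.614 and 0.144 CPM at day 9. Day 12 SSEA1+ cells split, at 7.86, 0.595 and 0.373 CPM, and iPS SSEA1+ cells had 1.49, 0.223 and 0.210 CPM.

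Replicate 1 was the highest for Cubn in every SSEA1+ group. The SSEA1- groups overlapped with MEFs, and the highest value of all was 15.3 CPM, in iPS SSEA1- replicate 2. Between the iPS fractions Cubn was lower in SSEA1+ cells by -3.42 ± 1.08 on the log2 scale (edgeR adjusted p = 0.01), and without that library the call was lost (-2.12 ± 1.06, edgeR adjusted p = 0.11). At day 9 the difference was -2.78 ± 1.06 (edgeR adjusted p = 0.039), and it missed the threshold without day 9 SSEA1- replicate 1 or 3 or any 1 of the 3 SSEA1+ libraries of that day (edgeR adjusted p = 0.053 to 0.14), and with no filter on low counts (edgeR adjusted p = 0.057). At day 6 it was -2.00 ± 1.01 (edgeR adjusted p = 0.14), and with the replicate block -2.15 ± 0.80 (edgeR adjusted p = 0.04). Against MEFs, iPS SSEA1+ cells were lower by -2.83 ± 1.07 (edgeR adjusted p = 0.023), a call lost without iPS SSEA1+ replicate 2 or 3 (edgeR adjusted p = 0.082 and 0.083). Day 6 SSEA1+ cells were not called against MEFs (-2.14 on the log2 scale, edgeR adjusted p = 0.089). They were called lower with the replicate block (-2.64 ± 0.83, edgeR adjusted p = 0.01), with block and GC offset, under DESeq2, in a fit of both groups alone and without day 6 SSEA1+ replicate 1 (-3.41 ± 1.27, edgeR adjusted p = 0.031).

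The kidney's proximal tubule also makes cubilin, and a list of 6 kidney tubule markers was read beside it. In SSEA1+ cells their sums were 81.8, 15.1 and 19.3 CPM at day 3, 8.17, 1.66 and 1.16 CPM at day 6, 7.21, 1.92 and 4.93 CPM at day 9, 129, 9.57 and 9.47 CPM at day 12 and 43.6, 43 and 16 CPM at the iPS stage. Replicate 1 was the highest in each, as for Cubn. At day 12 most of the sum was Lrp2, which encodes megalin, the partner of cubilin, with 128, 8.04 and 6.95 CPM. Aqp1 had 0.983, 1.49 and 2.47 CPM in these libraries. In SSEA1- cells the sum and Cubn were highest in the same replicate at days 3 and 12. They were highest in different replicates at days 6 and 9 and at the iPS stage. The iPS SSEA1- sums were 78, 188 and 238 CPM, where Cubn had 3.26, 15.3 and 2.27 CPM. Of the 6 markers 2, Lrp2 and Aqp1, had enough reads to be tested, Slc22a6 and Umod were at 0 in day 12 SSEA1+ cells, and the part of such cells in the Cubn level was not tested.

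Amn encodes amnionless, which anchors cubilin in the membrane, and it ran the other way. SSEA1- libraries had at most 0.596 CPM, and 4 of the 15 had no read. SSEA1+ cells had 0.704, 0.369 and 0.909 CPM at day 9, 1.02, 1.28 and 1.03 CPM at day 12 and 0.850, 1.28 and 1.63 CPM at the iPS stage. All these values are low, 45 to 80 reads per group. Each library of these 3 SSEA1+ groups lay above all SSEA1- libraries of its stage.

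Between fractions, Amn was higher in SSEA1+ cells by 2.37 ± 0.94, 3.51 ± 0.93 and 2.28 ± 0.86 on the log2 scale at day 9, day 12 and the iPS stage (edgeR adjusted p = 0.047, 0.003 and 0.028). The day 9 call was lost when any of 5 libraries of that day was left out, the exception being SSEA1+ replicate 2, and the iPS call without iPS SSEA1- replicate 1 or 2 or iPS SSEA1+ replicate 2 or 3 (edgeR adjusted p = 0.054 to 0.11). Both calls were lost with the GC offset (1.52 ± 0.81 at day 9 and 1.64 ± 0.73 at the iPS stage, edgeR adjusted p = 0.14 and 0.057). They were lost too with no filter on low counts (edgeR adjusted p = 0.071 and 0.053). The GC content of Amn, a mean over its transcripts, is the highest of the 10 genes (66.4%). The day 9 call was also lost with DESeq2's size factors (edgeR adjusted p = 0.05), and the iPS call in a fit of both groups alone (edgeR adjusted p = 0.12). The day 12 call held under every alternative run. Against MEFs, iPS SSEA1+ cells were higher by 2.13 ± 0.91 (edgeR adjusted p = 0.044), a call lost without any 1 MEF library or iPS SSEA1+ replicate 2 or 3 (edgeR adjusted p = 0.061 to 0.16) and with no filter on low counts (edgeR adjusted p = 0.067). Day 12 SSEA1+ cells were not called against MEFs in the model of all 33 libraries without a block (edgeR adjusted p = 0.066). They were called with the replicate block (1.94 ± 0.81, edgeR adjusted p = 0.04) and with block and GC offset together. The GC offset alone (1.97 ± 0.77, edgeR adjusted p = 0.03) and a fit of both groups alone (1.94 ± 0.53, edgeR adjusted p = 0.014) called them too. Cubn and Amn, whose products form 1 complex, were thus called in opposite directions between the fractions at day 9 and at the iPS stage.

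Comparing SSEA1+ with SSEA1- cells, 0, 1, 4, 2 and 5 of the 10 genes were called at days 3, 6, 9 and 12 and at the iPS stage, where 6.67%, 16.4%, 25.2%, 35.9% and 37.4% of all tested genes were called. Over all genes the iPS share was made of 16.0% higher and 21.3% lower. At day 3 DESeq2 called 1 gene and 1 had an unadjusted edgeR p under 0.05. The iPS calls were Gata4, Gata6, Dab2 and Cubn, lower in SSEA1+ cells, and Amn, higher. Sox17 (-2.49 ± 1.07), Sox7 (-1.55 ± 0.68), Foxa2 (-3.49 ± 1.58) and Cer1 (-4.35 ± 1.88) pointed the same way as Gata4 but missed the threshold (edgeR adjusted p = 0.057, 0.057, 0.068 and 0.055). Of 13 alternatives, 8 left Sox17 uncalled, 11 Sox7, 9 Foxa2 and 8 Cer1. The GC offset called Sox17 and Foxa2 (edgeR adjusted p = 0.038 and 0.049). The replicate block called Sox17, Foxa2 and Cer1 (edgeR adjusted p = 0.034, 0.014 and 0.0097), though not every pair of replicate numbers correlated here.

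The iPS count rested on the spread among the SSEA1- libraries. Without replicate 2, the library with the highest macrophage sum, Dab2 was the 1 gene called. Without replicate 3, the library with the highest pluripotency sum, 8 were called: Sox17 (-3.00 ± 1.08), Foxa2 (-4.04 ± 1.60) and Cer1 (-4.97 ± 1.82) joined the lower genes (edgeR adjusted p = 0.024, 0.037 and 0.024). The shares of all genes called were 28.3% and 43.8% in these fits. Whether the makeup of these libraries has a part in the difference was not tested.

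From day 12 to the iPS stage in SSEA1- cells, Gata4 (2.20 ± 0.72), Sox7 (1.86 ± 0.68), Gata6 (1.69 ± 0.59) and Sox17 (2.09 ± 1.05) had log2 differences above 1 and missed the threshold (edgeR adjusted p = 0.055, 0.084, 0.072 and 0.24). So did Foxa2 (2.78 ± 1.51), Amn (1.4 ± 0.95) and Cer1 (1.39 ± 1.63), with edgeR adjusted p of 0.28, 0.41 and 0.68. None of the 10 was called in that comparison (7.21% of all genes), and 3 had an unadjusted edgeR p under 0.05. With the replicate number as a block, Gata4 (2.14 ± 0.67) and Gata6 (1.66 ± 0.50) were called (edgeR adjusted p = 0.039 and 0.031), and DESeq2 called 2 genes. In SSEA1+ cells Dab2 was the 1 gene called (9.49% of all genes).

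The change in the fraction difference from day 12 to the iPS stage was tested as an interaction. None of the 10 genes was called, under edgeR or DESeq2, against 1.85% of all genes under edgeR, and 3 had an unadjusted edgeR p under 0.05. The lowest unadjusted edgeR p was that of Foxa2, at 0.0099 (-6.16 ± 2.18 on the log2 scale, edgeR adjusted p = 0.17), followed by Cer1 (-5.74 ± 2.47, adjusted p = 0.29) and Dab2 (-1.56 ± 0.70, adjusted p = 0.32). A change of the fraction difference was therefore not shown for any of them.

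**Figure D3:**
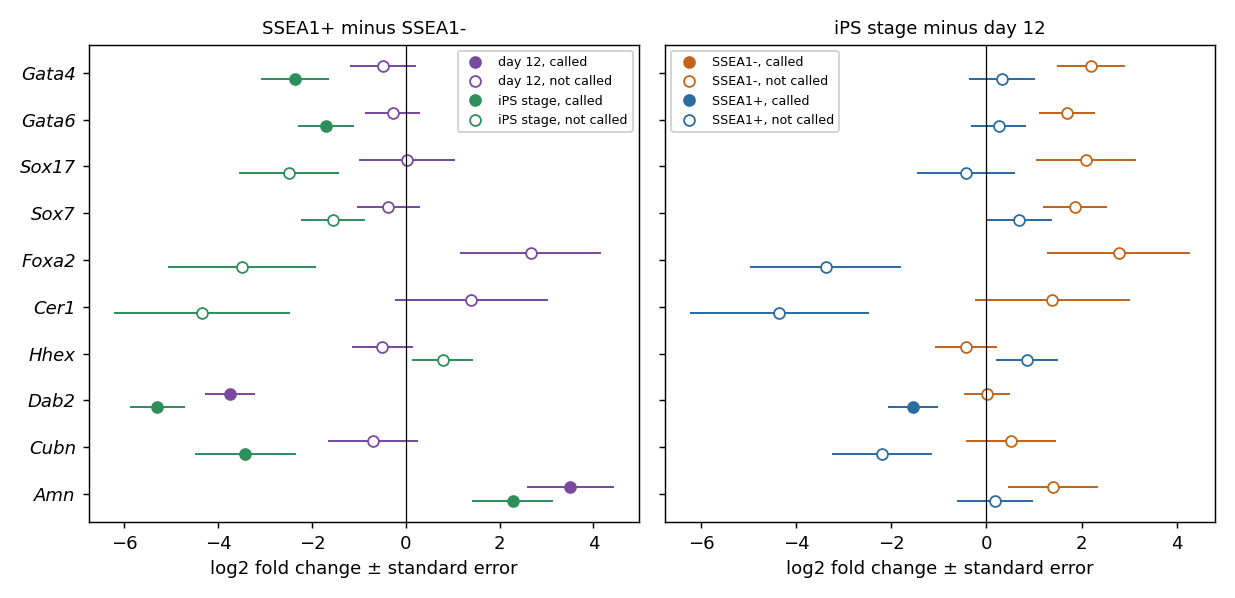
Log2 differences of the 10 genes with their standard errors: SSEA1+ minus SSEA1- at day 12 and at the iPS stage (left), and iPS stage minus day 12 within each fraction (right). Filled circles passed the adjusted p and the 2-fold minimum. At the iPS stage 8 of 10 left-hand circles lie below 0, all but Hhex and Amn, and Foxa2 and Cer1 have the widest error bars.

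Compared between genes per kilobase of merged exon, Dab2 had the highest mean level in iPS SSEA1- cells, at 25.6 CPM per kb. Cer1 (13.2), Gata4 (6.05) and Foxa2 (4.25) came next, then Gata6 (1.89), Sox17 (1.87), Hhex (1.4) and Sox7 (1.04), and Cubn (0.464) and Amn (0.133) were lowest, all as mean CPM per kb. The place of Cer1 rested on replicate 2: without it the means were 15.8 for Dab2, 4.41 for Gata4, 3.5 for Foxa2 and 1.99 CPM per kb for Cer1. In iPS SSEA1+ cells Hhex was highest, at 2.41 CPM per kb, and Gata4 followed at 1.18 CPM per kb. In MEFs Dab2 stood at 23.2, Gata6 at 2.12 and Cubn at 0.307 CPM per kb, and Sox17 and Cer1 at 0.

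Over the 33 libraries the levels, as log2(CPM + 1), fell into sets. Pearson's r was 0.96 between Gata4 and Sox17, 0.90 between Gata4 and Sox7, 0.90 between Sox17 and Foxa2 and 0.92 between Foxa2 and Cer1. Gata6 had r of 0.61 with Gata4, and Hhex no r above 0.19 with any of the other 9 genes. Dab2 had r of 0.61 with Cubn and -0.86 with Amn. The points share groups, stages and sequencing depth, so these values describe the libraries and carry no test.

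**Figure D4:**
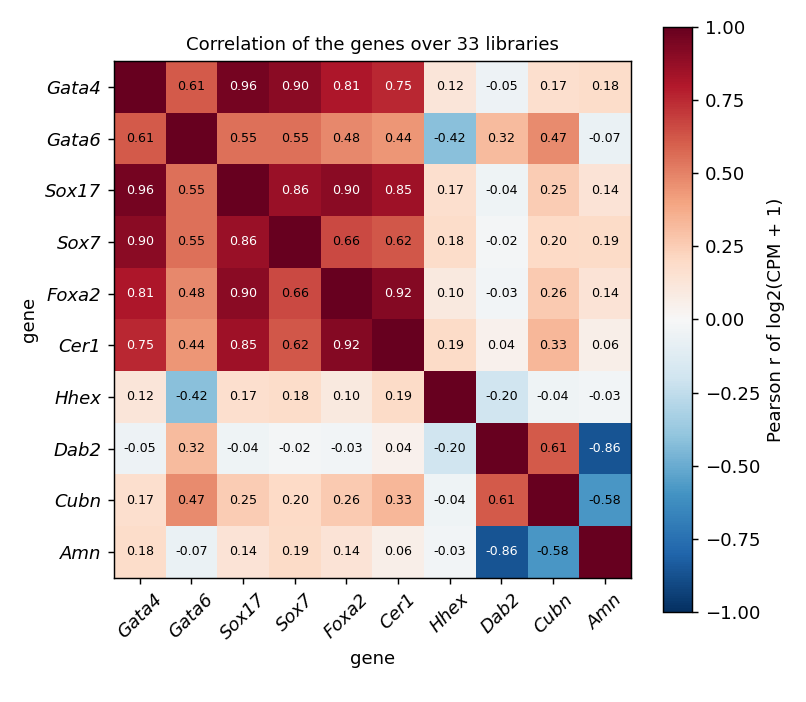
Pearson's r between the 10 genes over 33 libraries, computed on log2(CPM + 1), with the value printed in each cell and colour from blue (-1) to red (1). Gata4, Sox17, Sox7, Foxa2 and Cer1 form a block with r from 0.62 to 0.96, while Hhex lies outside it and Dab2 is opposite to Amn.

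Among the named genes most like each member by the same measure (n = 33 libraries) were Fgf10 (r = 0.92) and Foxq1 (0.91) for Gata4, and Foxq1 (0.94) and Spink1 (0.94) for Sox17. For Sox7 they included Klb (0.92) and Ldoc1 (0.89). Spink1, a secreted protease inhibitor of gut and pancreas, had 42.3, 55.9 and 0.782 CPM in iPS SSEA1- cells and 10.6, 0.17 and 0.0933 CPM in day 12 SSEA1+ cells.

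Foxa2 was closest to Lhx1 (r = 0.98), T (0.97) and Aplnr (0.97), and Cer1 to Samd3, Cyp26a1 and Lhx1 (all 0.95). T, or Brachyury, marks the primitive streak, and Lhx1 the anterior mesendoderm and visceral endoderm. In day 12 SSEA1+ cells T had 86.2, 0.893 and 0.280 CPM and Lhx1 had 16.3, 0.298 and 0.14 CPM. In iPS SSEA1- cells T had 12, 27.0 and 2.57 CPM and Lhx1 had 12.8, 19.4 and 0.633 CPM. Within day 12 SSEA1+ both were thus highest in replicate 1, and within iPS SSEA1- lowest in replicate 3, like Foxa2 and Cer1.

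The nearest genes of the remaining members were of other kinds. Gata6 was closest to Cd40, Mmp9 and Flt1 (r = 0.90 each), and Flt1, a VEGF receptor gene, had 172, 155 and 130 CPM in MEFs and 32.6, 83.2 and 24.0 CPM in iPS SSEA1- cells. Hhex was closest to Cobl (0.85), Gsta4 (0.80) and Lama3 (0.79). Dab2 was closest to Rgl1, Extl2 and Tcaf1 (0.97 each), Cubn to Lyn, Nus1 and Thsd4 (0.83 each), and Amn to Pdzd4 (0.94), Sptbn4 (0.93) and H2-Bl (0.93).

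Other genes of these tissues were read from lists chosen by function. Of 23 definitive endoderm and anterior mesendoderm genes, 19 were higher and none lower in iPS SSEA1- cells than in MEFs. Those without MEF reads could not be called lower. Over all tested genes the median log2 difference was 0.19, and 19.1% were higher and 7.70% lower. The median of the 23 was 7.05, or 6.53 with genes lacking MEF reads at their lower bound. Several are known in pluripotent cells as well, such as Otx2, a head organiser factor with 39.2, 64.5 and 75.9 CPM there and 89.1, 180 and 106 CPM in iPS SSEA1+ cells, and Epcam, an adhesion gene with 77.9, 94.7 and 56.5 CPM in iPS SSEA1- cells. Pga5, a pepsinogen gene, had no MEF read and 15.7, 32.9 and 4.65 CPM in iPS SSEA1- cells, above the 6.21, 3.73 and 4.67 CPM of iPS SSEA1+ cells in 2 of 3 libraries.

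Between fractions at the iPS stage, 3 of these 23 genes were higher and 6 lower in SSEA1+ cells, where 16.0% of all tested genes were higher and 21.3% lower, so these counts are near the share over all genes. Nepn, a marker of early gut endoderm, had 0.995, 10.4 and 1.82 CPM in SSEA1- libraries and no read in SSEA1+ libraries (edgeR adjusted p = 2.6e-05). Cxcr4, a chemokine receptor used to sort definitive endoderm, was lower by -2.04 ± 0.66 (edgeR adjusted p = 0.012), with 23.3, 13.2 and 1.34 CPM in SSEA1- and 2.87, 4.23 and 2.10 CPM in SSEA1+ cells. Gsc, a primitive streak factor, was higher by 2.17 ± 0.66 (edgeR adjusted p = 0.0083). Without iPS SSEA1- replicate 2 the counts were 3 higher and 2 lower, and without replicate 3 they were 3 and 10.

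In day 12 SSEA1+ cells 17 of the 23 were higher than in MEFs and none lower (26.5% and 20.2% of all genes). Without replicate 1 of that group the counts were 11 and 2. Trh, the thyrotropin releasing hormone gene, had 555, 210 and 109 CPM in that group and 47.8, 36.6 and 9.94 CPM in day 12 SSEA1- cells.

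Of 28 tested extraembryonic endoderm genes, 11 were higher and 3 lower in iPS SSEA1- cells than in MEFs (19.1% and 7.70% of all genes). Their median log2 difference was 1.78 in iPS SSEA1- cells. Lama1, a basement membrane laminin, had 143, 493 and 263 CPM there, and rose by 3.80 ± 0.49 on the log2 scale (edgeR adjusted p = 3.1e-06). Hnf4a, a visceral endoderm and liver factor without a read in MEFs, had 4.6, 3.48 and 2.57 CPM in iPS SSEA1- and 8.60, 7.74 and 9.91 CPM in iPS SSEA1+ cells. Apoe, a lipoprotein gene, was higher in SSEA1+ cells (927, 1020 and 386 CPM) than in SSEA1- cells (80.8, 75.2 and 217 CPM) at the iPS stage, by 2.64 ± 0.67 (edgeR adjusted p = 0.0021).

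In the comparison of fractions at the iPS stage 13 of these 28 were lower and 1, Apoe, was higher in SSEA1+ cells, with a median of -2.06 beside 0.06 over all genes, of which 21.3% were lower and 16.0% higher. The 3 with the smallest p were Sparc (-4.02 ± 0.43), Thbd (-6.35 ± 0.76) and Col4a2 (-3.12 ± 0.38), matrix and coagulation genes that fibroblasts or vessels also make (edgeR adjusted p = 5.3e-08, 2.5e-07 and 3.3e-07). Sparc had 8350 CPM on average in MEFs, more than in any of the iPS libraries. Without iPS SSEA1- replicate 2 the counts were 11 lower and 1 higher, and without replicate 3 they were 17 and 3.

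Later derivatives were thinly measured. Of 14 gut and liver genes 7 passed the minimum. In iPS SSEA1- cells 3 of these were higher and 0 lower than in MEFs (19.1% and 7.70% of all genes). In iPS SSEA1+ cells 3 were higher and 3 lower than in MEFs, with 50.5% of all genes called in either direction. Prox1, a liver and lymphatic factor, had 16.8, 5.25 and 0.633 CPM in iPS SSEA1- cells and 1.81, 0.891 and 0.787 CPM in iPS SSEA1+ cells.

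Of 22 tested partners of the endocytic genes 2 were higher and 6 lower in iPS SSEA1- cells than in MEFs, with a median of -0.15 (19.1% and 7.70% of all genes). Clu, a secreted chaperone, had 322, 423 and 203 CPM in iPS SSEA1- cells, up by 4.34 ± 0.51 on the log2 scale (edgeR adjusted p = 8.8e-07). Dab1, the neural relative of Dab2, had 9.09, 5.47 and 4.54 CPM in iPS SSEA1- and 3.13, 6.18 and 11.3 CPM in iPS SSEA1+ cells, and overlapped between the fractions.

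Of 11 tested paralogs and cofactors of the members, 3 were higher and 3 lower in iPS SSEA1- cells than in MEFs (19.1% and 7.70% of all genes), and without MEF replicate 1 the counts were 1 and 3. Gata1, the blood member of the GATA family, had no MEF read and 0.274, 1.18 and 1.94 CPM in iPS SSEA1- cells. Zfpm2, a cofactor of GATA4, was lower in SSEA1+ than in SSEA1- cells at the iPS stage, by -4.99 ± 0.47 on the log2 scale (edgeR adjusted p = 5.6e-09). Grem1, a BMP inhibitor of the family of Cer1, was lower in iPS SSEA1+ cells as well (-7.35 ± 0.71, edgeR adjusted p = 9e-09).

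Of 25 FGF and Nodal genes that act upstream of endoderm, 13 were higher and 1 lower in iPS SSEA1- cells than in MEFs (median 1.23, with 19.1% and 7.70% of all genes called in these directions). Nodal had no MEF read, 3.09, 6.43 and 34.4 CPM in iPS SSEA1- cells and 66.2, 47.7 and 77.5 CPM in iPS SSEA1+ cells. Fgf4 had 7.79, 18.8 and 142 CPM in iPS SSEA1- cells and 349, 342 and 464 CPM in iPS SSEA1+ cells. Both genes, which pluripotent cells express, were highest among the iPS SSEA1- libraries in replicate 3, where Foxa2, Cer1, Sox17 and Gata4 were lowest. Gata6, Dab2 and Cubn were lowest there too, whereas Sox7 and Hhex were lowest in replicate 1 and Amn was highest in replicate 3.

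Between the iPS fractions 8 of the 25 were higher and 6 lower in SSEA1+ cells (16.0% and 21.3% of all genes). The FGF feedback genes Spry4 and Dusp6 were lower, by -2.17 ± 0.24 and -2.30 ± 0.34 on the log2 scale (edgeR adjusted p = 7.1e-08 and 4.9e-06). The Nodal receptor gene Acvr2b was higher, by 2.38 ± 0.42 (edgeR adjusted p = 4.9e-05).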

How the data were processed

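Gene counts of 33 libraries, deposited by the authors as 1 file of raw read counts per library, were used as given. HTSeq 0.6.0, STAR 2.3.0, Picard 1.100 and mm9 stand in the submitters' processing notes, with no role given. Only file names call the counting unstranded, so reads of a gene and an antisense partner cannot be told apart. Reads in no gene (4.42 to 15.51% of uniquely aligned reads) and ambiguous reads (2.41 to 3.15%) stayed out of totals and tests. Of the 37583 identifiers 32860 had a symbol in GENCODE M21, used for names, merged exon length and GC content only, since it belongs to another build.

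One edgeR 4.0.16 model (R 4.3.3; TMM, filterByExpr, robust glmQLFit, glmQLFTest) covered the 33 libraries, with 11 group means and 22 residual degrees of freedom. Benjamini-Hochberg adjustment ran over all 17326 tested genes and 18 comparisons were made. Standard errors are the log2 fold change over the square root of F. Levels are TMM-normalised CPM. Grouping and replicate numbering follow the labels. Same-numbered libraries deviated together (every r over 0.1) in 8 comparisons, the sorts of days 3, 6, 9 and 12, SSEA1+ against MEFs at days 3, 6 and 12, and SSEA1- from day 12 to iPS, and blocked values are given for these where they change a call. No 2 libraries agreed within sampling noise. The test was tried on simulated counts. Alternatives were DESeq2 1.42.0, its size factors, no filter, the replicate block, a GC offset, the compared groups alone and leaving out each library. List counts without 4 libraries, and lower bounds and levels per kb without the library they rest on, were added after the data had been seen.

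The 10 genes and all lists were chosen with earlier results of these data known. Named genes were the 10, up to 4 of each list by the smallest p in iPS SSEA1- against MEFs and up to 3 in the iPS fractions, and for each of the 10 the 3 genes with the highest r, leaving out predicted and unnamed ones. Some genes that this rule names are not reported here.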

Additional observations from a re-analysis of the deposited data

How the results depend on the processing

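None of the single calls reversed direction: of 741 values of called genes under the alternatives, 672 kept the call, 62 lost it and 7 could not be had, since the gene fell under the minimum of a fit of the compared groups alone. Of the counts of the 10 genes called, 32 moved by over 1.5 times and 208 did not, and of the counts over all genes 20 moved and 220 did not. With the replicate number as a replicate block, the 10 genes gave 1 call between fractions at day 3, 2 at day 6 and 2 in SSEA1- cells from day 12 to iPS. Between the iPS fractions, where not every pair of numbers correlated (lowest r 0.07), the block gave 8 calls, and 8 with the GC offset as well. Block and GC offset together gave 2 at day 6 and 2 in SSEA1- cells from day 12 to iPS, where the GC offset alone gave 1. The interaction called 321 genes in all and 497 with the block, 551 with block and GC offset and 648 under DESeq2.

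DESeq2 called 1 of the 10 between fractions at day 3 and 2 in SSEA1- cells from day 12 to iPS. No filter left 2 at day 9 and 0 in SSEA1+ cells from day 12 to iPS, where DESeq2's size factors also gave 0. Fits of the compared groups alone gave 1 at day 3, 2 at day 9, 4 in day 12 SSEA1+ against MEFs and 0 in SSEA1+ cells from day 12 to iPS. Over all genes they called 2745 genes in iPS SSEA1- against MEFs (4636 with all groups), 196 in SSEA1- from day 12 to iPS (1250) and 0 for the interaction (321). These fits hold fewer samples, and in day 12 SSEA1+ against MEFs they left Sox17, Sox7, Foxa2 and Cer1 untested.

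Leaving out 1 library gave 1 to 2 of the 10 called between fractions at day 6, 2 to 3 at day 9, 2 to 6 at day 12 and 1 to 8 at the iPS stage. It gave 5 to 8 in day 12 SSEA1+ against MEFs, 0 to 1 in SSEA1- and 0 to 1 in SSEA1+ cells from day 12 to iPS. Over all genes the ranges were 531 to 1117 at day 3 (lowest without SSEA1+ replicate 3), 478 to 1362 in SSEA1- (lowest without day 12 replicate 3) and 871 to 1799 in SSEA1+ cells (lowest without day 12 replicate 3) from day 12 to iPS, and 135 to 645 for the interaction (lowest without iPS SSEA1+ replicate 3). Apart from the libraries named beside each result the cause was not tested. Depth limits Amn, Sox7, Sox17, Foxa2 and Cer1 most, since their lowest groups held 0 to 5 reads.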
